A study of Homo sapiens with 8 samples.

Results

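YAP1 and WWTR1 (TAZ), their DNA-binding partners TEAD1 and TEAD4, the kinases LATS1 and LATS2, and the target genes CCN2, CCN1, ANKRD1 and AMOTL2 were examined in HCT116, an established line of human colorectal cancer cells, transfected with a miR-8073 mimic. The 10 genes were chosen by symbol, with earlier results of these data known, and all their probes were taken. The array carried 1 probe for each, so they made up 10 of 24460 probes and 10 of the 17559 genes with a symbol. CCN2 and CCN1 appear on the array under their older symbols CTGF and CYR61. Expression was measured on 8 one-colour arrays: 3 of cells given the synthetic miR-8073 mimic, 3 of cells given a microRNA-negative control sequence, and 2 of mock cells, which the study calls a blank. All cells were HCT116 and differed by treatment alone in the labels. The study states the time after transfection in 2 ways that differ, and the labels do not say whether arrays of a group came from separate cultures, so the p-values reflect the spread among these arrays alone, and that spread may be technical.

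In the Hippo pathway the kinases STK3 and STK4 activate LATS1 and LATS2, which phosphorylate the co-activators YAP and TAZ and so keep them out of the nucleus. Unphosphorylated YAP and TAZ enter the nucleus and bind TEAD transcription factors, which have little activating power of their own. CCN2, CCN1 and ANKRD1 are widely used readouts of this activity, and AMOTL2 and LATS2 are targets that restrain it in turn. In the intestine YAP is known for its part in regeneration and in tumours of the colon.

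The mature strand of hsa-miR-8073 is shown because a synthetic mimic of this miRNA was transfected. The study does not give the sequence of that reagent. The strand shown is from RefSeq (GRCh38.p14, chr13:110340968-110340989, plus strand), with the seed, bases 2 to 8, in capitals. Whether its seed match occurs in the mRNAs of the 10 genes was not analysed here.
hsa-miR-8073: aCCUGGCAgcagggagcgucgu

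TEAD factors recognise the motif GGAATG, or CATTCC on the other strand, and the stretches around its copies upstream of the start site are shown, since these genes are grouped by TEAD. Promoter windows of 300 bases (250 before the start site and 50 after it) from RefSeq, GRCh38.p14, were searched on both strands. CCN2 held 3 copies, 2 of them separated by a few bases, ANKRD1 held 2, and YAP1, LATS2 and 1 of the 2 windows of AMOTL2 held 1. Both windows of WWTR1 and both of LATS1 held none. CCN1, TEAD1 and TEAD4 had no window in the set used, so their promoters were not searched. Of 35116 windows of all genes, 4928 held at least 1 copy, 482 (1.37%) at least 2 and 45 (0.128%) at least 3. The copy of LATS2 lay after the start site and is not shown. The windows are chr6:131951524-131951553 and chr6:131951454-131951483 for CCN2, chr10:90921290-90921319 and chr10:90921198-90921227 for ANKRD1, and chr3:134374499-134374528 for AMOTL2, all on the minus strand, and chr11:102110273-102110302 on the plus strand for YAP1, with the motif in capitals. A match is a description of these letters only.
CCN2, 169 bases before the start site: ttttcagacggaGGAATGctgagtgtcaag
CCN2, 104 bases before the start site: gtggggaGGAATGcgaGGAATGtccctgtt
ANKRD1, 220 bases before the start site: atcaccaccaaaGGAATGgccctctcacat
ANKRD1, 128 bases before the start site: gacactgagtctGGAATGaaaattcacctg
AMOTL2, 69 bases before the start site: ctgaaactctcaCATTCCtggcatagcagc
YAP1, 162 bases before the start site: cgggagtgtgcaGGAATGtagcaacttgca

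The arrays were alike in quality. Each held 2680 blank spots, which averaged 59.8 to 64.3 scanner units, and 11560 to 12786 probes (47.3% to 52.3%) were brighter than the 95th percentile of the blanks, here called above background. Of 7 measured epithelial markers of the labelled cell type, 6 were above background on at least 1 array, among them EPCAM (signal 1198 to 1617) and KRT18 (3612 to 5462), while the colon marker CEACAM5 was not (1.28 to 1.81). Signals of CDX2 (4.36 to 7.93, above background on 6 arrays) and VIL1 (8.87 to 17.3, on all 8) were low. Of 8 measured markers of leukocytes, endothelium, fibroblasts and neurons, 6 were below background on all arrays. The leukocyte gene CD14 was above background on mimic array 1 only, at 4.98. The fibroblast gene DCN was above it on all 8, at 44.2 to 59.6, and the other fibroblast genes COL1A1 and COL1A2 were near 0 (1.53 to 2.63). Summed, these 8 markers had signals of 60.2 to 76.8 with the mimic, 62.3 to 69.1 with the negative control and 61.2 to 71.3 in mock. Most of each sum came from DCN, so the sums say little about the other cell types.

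Signals below are normalized values in scanner units, with the blank level removed. Differences are in log2(signal + 50), a scale on which changes of dim probes such as these look smaller than in signal, and p-values are those of limma, adjusted over the 12904 probes above background on at least 2 arrays. Of the 10 genes, 6 passed that filter: WWTR1, TEAD1, TEAD4, LATS1, CCN2 and CCN1, each above background on all 8 arrays. YAP1, ANKRD1 and AMOTL2 were not above background on any array, and LATS2 was on 1. Signals of different probes cannot be set against each other on this array.

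YAP1 was not above background on any array, so its mRNA could not be compared. Its spot (probe CHsGV10003820) read 60.0 to 63.5 scanner units before normalization, against blank 95th percentiles of 63.9 to 69.8. After normalization it had signals of 2.93, 1.98 and 2.01 with the mimic, 2.70, 2.47 and 2.40 with the negative control, and 2.12 and 2.67 in mock. In the authors' own log2 values YAP1 lay at the lowest value listed on all 8 arrays. Whether HCT116 cells express the gene cannot be read from this probe.

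WWTR1, which encodes TAZ, was measurable (CHsGV10002057), and both the mimic and the negative control lay below mock. Its signal was 26.3, 22.8 and 25.7 with the mimic (24.9 ± 1.87, SD, n = 3), 30.5, 23.5 and 28.9 with the negative control (27.6 ± 3.64, n = 3) and 47.6 and 35.5 in mock (41.5 ± 8.61, n = 2). All 6 mimic and negative control arrays were lower than both mock arrays, and the mimic and negative control overlapped. The log2 difference from mock was -0.29 ± 0.07 (SE) for the mimic (adjusted p = 0.0651 in limma) and -0.24 ± 0.07 for the negative control (adjusted p = 0.101), so neither passed the threshold of 0.05. That of the mimic passed with an offset of 16 (0.0316) or an intensity trend (0.0181), and that of the negative control with the trend alone (0.0476). Mimic against negative control gave -0.05, with a 95% interval of -0.19 to 0.09 (adjusted p = 0.62).

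TEAD4 and TEAD1 did not pass in any comparison, and their groups overlapped throughout. TEAD4 (H300021515) had signals of 51.9, 43.8 and 47.6 with the mimic, 51.3, 48.1 and 42.0 with the negative control, and 50.9 and 45.8 in mock. Its log2 difference was 0.01 for mimic against negative control (95% interval -0.11 to 0.13), -0.0090 for mimic against mock (-0.14 to 0.13) and -0.02 for negative control against mock (-0.15 to 0.12). TEAD1 (H300019821) had 7.05, 6.06 and 7.01 with the mimic, 6.89, 7.37 and 7.09 with the negative control, and 5.20 and 8.71 in mock. The 2 mock arrays lay on either side of all the others. Its log2 difference was -0.01 for mimic against negative control (-0.09 to 0.07), with adjusted p-values of 0.881 to 0.966 over the 3 comparisons.

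Of the kinases, LATS1 (CHsGV10002689) was highest with the negative control without passing the test. It had 7.79, 5.28 and 8.01 with the mimic (7.03 ± 1.52), 12.5, 10.7 and 8.63 with the negative control (10.6 ± 1.95), and 4.26 and 7.54 in mock (5.90 ± 2.32). The negative control arrays lay above all 5 others, although the lowest of them (8.63) was close to the highest mimic array (8.01). Its log2 difference was -0.09 ± 0.04 for mimic against negative control (adjusted p = 0.21) and 0.12 ± 0.05 for negative control against mock (adjusted p = 0.217). LATS2 (H200002792), both a kinase of the pathway and a YAP target, was above background on mimic array 3 only. Its signals were 4.13, 4.41 and 9.98 with the mimic, 3.79, 2.69 and 4.14 with the negative control, and 2.67 and 4.82 in mock. No test was made.

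**Figure D1:**
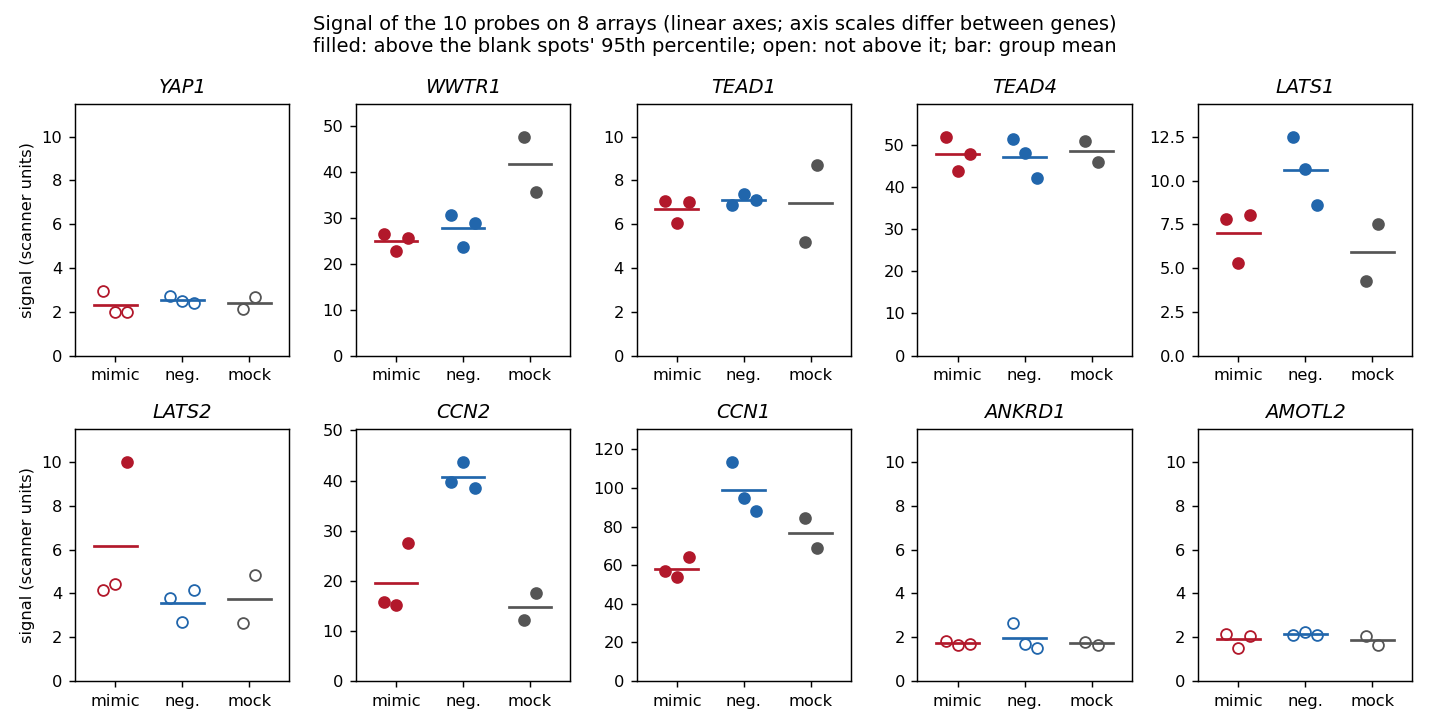
Normalized signal (scanner units, linear axes whose scales differ between genes) of the 10 probes on each array of the miR-8073 mimic, the negative control and mock; filled points are above background, open points are not, and bars are group means. CCN2 and CCN1 are highest in the 3 negative control arrays, and WWTR1 in the 2 mock arrays.

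CCN2, a secreted matricellular protein (connective tissue growth factor), was lower with the mimic than with the negative control, and the negative control in turn was higher than mock. Probe H300003809 had signals of 15.8, 15.2 and 27.4 with the mimic (19.5 ± 6.89, SD, n = 3), 39.8, 43.7 and 38.4 with the negative control (40.6 ± 2.76, n = 3), and 12.2 and 17.5 in mock (14.8 ± 3.73, n = 2). The 3 negative control arrays stood above all 5 others, while mimic and mock overlapped. Among the mimic arrays, array 3 was the highest. The log2 difference was -0.39 ± 0.07 (SE) for mimic against negative control (adjusted p = 0.0135), a signal 2.09-fold lower, and 0.48 ± 0.08 for negative control against mock (adjusted p = 0.0267), a signal 2.74-fold higher. Mimic against mock gave 0.10, with a 95% interval of -0.09 to 0.29 (adjusted p = 0.61). Without mimic array 3, mimic against negative control was -0.46 (adjusted p = 0.00618). The call of negative control against mock was lost without either mock array or any 1 of the negative control arrays (adjusted p = 0.0518 to 0.15). These comparisons share the negative control arrays, so a high level in those arrays enters both. In RNA of whole cultures, fewer cells that express a gene and less of its RNA per cell cannot be told apart.

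CCN1, the other CCN matricellular gene (cysteine-rich angiogenic inducer), was lower with the mimic than with the negative control. Probe H300020208 had 57.0, 53.6 and 64.2 with the mimic (58.2 ± 5.41), 113.5, 95.02 and 88.1 with the negative control (98.9 ± 13.1), and 84.4 and 68.8 in mock (76.6 ± 11.03). The groups did not overlap in any of the 3 comparisons, with mock between the mimic and the negative control. For mimic against negative control the log2 difference was -0.46 ± 0.08 (adjusted p = 0.00949), a signal 1.70-fold lower. It was -0.22 ± 0.09 for mimic against mock (95% interval -0.43 to -0.02, adjusted p = 0.224) and 0.23 ± 0.09 for negative control against mock (0.03 to 0.44, adjusted p = 0.183), and neither passed. The calls of CCN1 and CCN2 for mimic against negative control held without any 1 of the 8 arrays (adjusted p = 0.0182 to 0.0343 for CCN1 without a mimic or negative control array, and 0.00618 to 0.0458 for CCN2). Both were lost with the methods' t-test (0.0627 for CCN1 and 0.0822 for CCN2), and that of CCN2 with median centring (0.0759). With background taken from the pixels ringing each spot, limma called no probe in any comparison (367, 266 and 421 at an unadjusted p below 0.05 for mimic against negative control, mimic against mock and negative control against mock), so each call given here was lost.

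ANKRD1, which encodes a nuclear ankyrin repeat protein, and AMOTL2, an angiomotin-like protein that binds YAP, gave no measurable signal. ANKRD1 (H200004089) lay between 1.49 and 2.66 and AMOTL2 (opHsV0400003846) between 1.51 and 2.26 on all 8 arrays. Both were at the lowest value listed on every array in the authors' log2 values. Of the 4 target genes outside the kinases, the 2 CCN genes were therefore the only ones these arrays could compare.

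Of the 6 tested genes, 2 fell for mimic against negative control, where 15.6% of all tested probes were called (7.82% lower and 7.81% higher). For negative control against mock 1 of the 6 was higher, where 3.6% of all tested probes were called (2.23% lower and 1.37% higher). For mimic against mock limma called none of the 6 (2 at an unadjusted p below 0.05, and none by the methods' t-test after adjustment), where 3.78% of all were called (2.56% lower and 1.22% higher). Their groups did not overlap in 3, 4 and 2 of the 6 for these comparisons in the same order, and in 37.8%, 39.3% and 33.8% of all tested probes. The median log2 difference of the 6 was -0.07 for mimic against negative control, 0.06 for negative control against mock and -0.0073 for mimic against mock, where the medians of all tested probes were 0.0041, 0.00089 and 0.0063. With 6 genes, chosen with earlier results of these data known, these counts are a description.

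**Figure D2:**
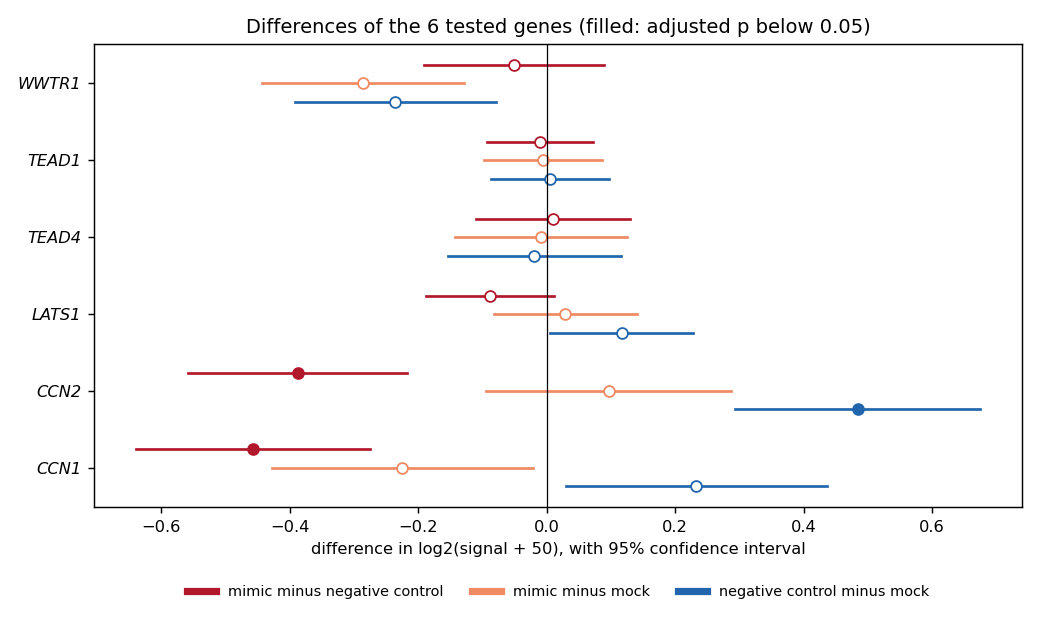
Difference in log2(signal + 50), with its 95% confidence interval from limma, of the 6 tested genes in 3 comparisons; filled points have an adjusted p below 0.05. CCN2 and CCN1 lie at -0.39 and -0.46 for mimic against negative control, while the intervals of TEAD1 and TEAD4 span 0 in each comparison.

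A wider list of 22 YAP/TAZ target genes, 5 of them among the 10 above, did not move in 1 direction. All 22 had a probe and 15 were tested. For mimic against negative control 3 fell (GADD45B, CCN1 and CCN2), 1 rose (F3) and 11 did not pass, with a median log2 difference of 0.03 over the 15. That is 4 of 15 called, where 15.6% of all tested probes were. For negative control against mock 2 were higher (GADD45B and CCN2) and 1 was lower (F3), with a median of 0.02, where 3.6% of all tested probes were called. For mimic against mock AXL alone was higher and none was lower, with a median of 0.02, where 3.78% of all were called. With 15 genes these counts too are a description. This list and those below were also chosen with earlier results of these data known. Of the other 7 genes of the list, MYOF, FOXF2, TGFB2, RBMS3, ANKRD1 and AMOTL2 were below background on every array, and LATS2 was above it on 1.

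GADD45B, a stress-induced regulator of growth arrest, shared the pattern of CCN2. Its signal was 149.8, 127.1 and 136.1 with the mimic, 248.1, 206.7 and 213.0 with the negative control, and 139.0 and 143.9 in mock. Only the negative control arrays stood apart, with log2 differences of -0.54 ± 0.07 for mimic against negative control (adjusted p = 0.00345) and 0.51 ± 0.08 for negative control against mock (adjusted p = 0.0202).

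F3, the gene of tissue factor, the starter of blood coagulation, ran the opposite way. It had 426.3, 356.5 and 435.4 with the mimic, 242.1, 225.5 and 228.0 with the negative control, and 314.7 and 383.7 in mock. Again the negative control arrays stood apart from all others, here as the lowest, with a log2 difference of 0.69 ± 0.09 for mimic against negative control (adjusted p = 0.0033) and -0.50 ± 0.10 for negative control against mock (adjusted p = 0.041). AXL, a receptor tyrosine kinase for GAS6, was highest with the mimic, at 220.0, 191.3 and 197.7, against 164.0, 168.5 and 165.6 with the negative control and 142.9 and 117.3 in mock. AXL was the 1 target gene that rose against mock (0.49 ± 0.07, adjusted p = 0.0143), and against the negative control it gave 0.23 ± 0.06 (adjusted p = 0.0535). The calls of GADD45B and F3 for mimic against negative control held without any 1 array. Those for negative control against mock were less firm. That of F3 was lost without any 1 array other than mimic array 2 (adjusted p = 0.053 to 0.115), and that of GADD45B without negative control array 3 or either mock array (0.055 to 0.115). AXL against mock was lost without mock array 2 (0.0675). Median centring, the authors' log2 values, a fit of the compared groups alone and the methods' t-test each ended the calls of AXL against mock (0.0636 to 0.264), and of F3 (0.0642 to 0.246) and GADD45B (0.0521 to 0.233) for negative control against mock. The calls of F3 (0.116) and GADD45B (0.0616) for negative control against mock were also lost without the filter on dim probes.

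**Figure D3:**
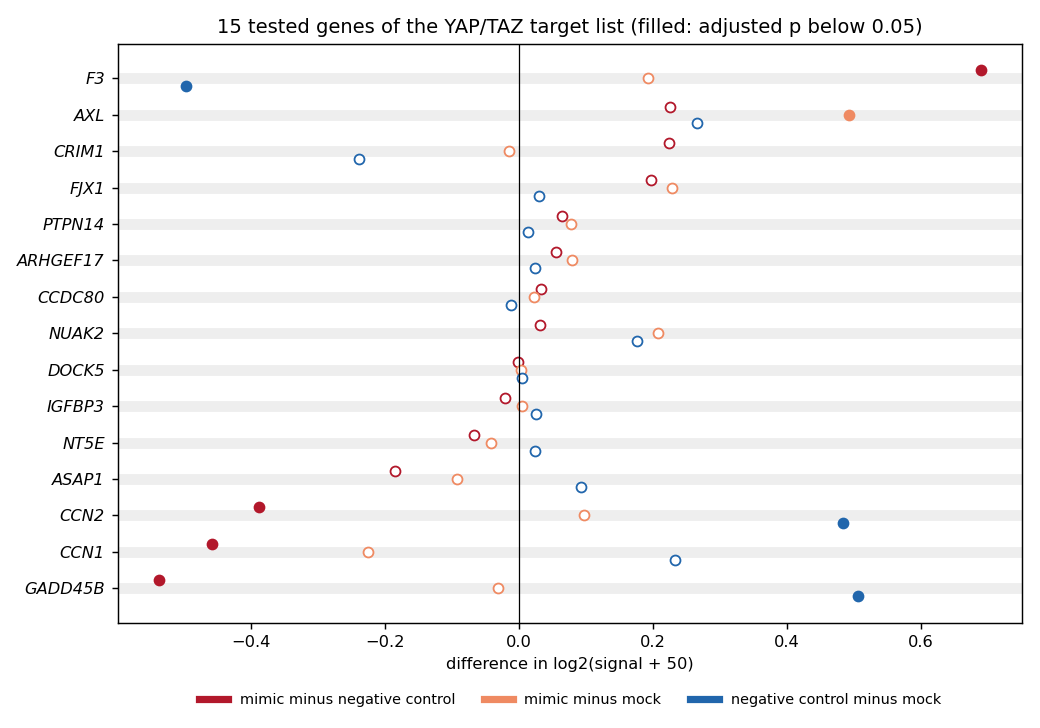
Difference in log2(signal + 50) of the 15 tested genes of the YAP/TAZ target list in 3 comparisons; filled points have an adjusted p below 0.05. GADD45B, CCN1 and CCN2 lie lowest for mimic against negative control (-0.54, -0.46 and -0.39) and F3 highest (0.69).

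Upstream of YAP, 24 Hippo pathway genes were listed, of which 23 had a probe and 18 were tested. For mimic against negative control AMOT, an angiomotin that holds YAP in the cytoplasm, fell, MAP4K4, a kinase that phosphorylates LATS1 and LATS2, rose, and 16 did not pass, with a median of 0.01. These 2 of 18 calls were no larger a share than the 15.6% of all tested probes. AMOT had a signal of 14.7 ± 1.28 with the mimic, 23.98 ± 2.53 with the negative control and 20.1 ± 2.19 in mock. Its log2 difference from the negative control was -0.19 ± 0.04 (adjusted p = 0.0189). MAP4K4 had 35.5 ± 5.52 with the mimic, 22.8 ± 2.74 with the negative control and 28.6 ± 2.97 in mock, with a difference of 0.23 ± 0.06 (adjusted p = 0.0326). Both calls were lost without certain single arrays: AMOT without mimic array 2 or 3 or negative control array 1 or 3 (0.0542 to 0.0642), and MAP4K4 without mimic array 1 or 3 or any 1 negative control array (0.0572 to 0.105). AMOT was also lost with the methods' t-test (0.0564), median centring (0.0719) and the authors' log2 values (0.0823), and MAP4K4 with the authors' log2 values (0.0868), no filter (0.0767), the replicate block (0.0576) and the methods' t-test (0.112). Limma called none of the 18 for mimic against mock or negative control against mock (3 each at an unadjusted p below 0.05, and none by the methods' t-test after adjustment). The core kinases STK3 and STK4, their scaffold SAV1, the LATS co-activator MOB1A and the membrane protein NF2 (merlin) were among the genes that did not pass.

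Of 13 TEAD factors, co-activators and cofactors, all with a probe, 10 were tested. RUNX1, a runt-domain transcription factor, fell for mimic against negative control (-0.66 ± 0.09, adjusted p = 0.00441) and was higher for negative control against mock (0.61 ± 0.10, adjusted p = 0.0253). Its signal was 117.3 ± 16.6 with the mimic, 214.1 ± 22.1 with the negative control and 122.8 ± 11.7 in mock. A second RUNX1 probe, with a mean signal of 8.02 over the 8 arrays, did not show this. In limma it gave -0.02 for mimic against negative control (adjusted p = 0.857). For negative control against mock it gave -0.05 (adjusted p = 0.643), of opposite sign to the first probe. Changes of so dim a probe look small on this scale, and why the probes differ was not tested. The call of the first probe for negative control against mock was lost without either mock array or any 1 negative control array (0.0517 to 0.143), and with median centring (0.170), the authors' log2 values (0.105), no filter (0.0830), the replicate block (0.0780) and the methods' t-test (0.228). That for mimic against negative control was lost with the methods' t-test (0.0542). VGLL4, which competes with YAP for TEAD, was above background on all mimic and mock arrays and on no negative control array. Its signal was 8.29 ± 1.38 with the mimic, 2.58 ± 0.107 with the negative control and 5.66 ± 1.40 in mock. For mimic against negative control VGLL4 rose by at least 1.05-fold (adjusted p = 0.0272 in limma). That bound comes from means of log2(signal + 50) and does not allow for the spread among arrays. It is not on the scale of the signal folds of CCN1 and CCN2. VGLL4 passed the filter through mimic and mock arrays alone, where it was brighter, so its p-value is a description and no independent support. The call was lost without mimic array 1 or 2 or any 1 negative control array (0.0651 to 0.0859). It was also lost with median centring (0.0566) or the replicate block (0.0597). The medians of the 10 were -0.03, -0.0073 and 0.0044 for mimic against negative control, mimic against mock and negative control against mock. For mimic against mock limma called none of the 10 (2 at an unadjusted p below 0.05, and none by the methods' t-test after adjustment). The calls were thus 2 (VGLL4 among them), 0 and 1 of 10 in these comparisons, where 15.6%, 3.78% and 3.6% of all tested probes were called.

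Outside these lists, the genes whose log2 values followed CCN1 most closely over the 8 arrays were NPAS2 (Pearson r = 0.981), VIM (0.977) and SLC35G1 (0.971). NPAS2, a circadian transcription factor, had a mean signal of 17.5 with the mimic, 32.6 with the negative control and 26.3 in mock. VIM, the gene of vimentin, had 14.6 with the mimic, 27.8 with the negative control and 19.6 in mock. For CCN2 they were EDC3 (0.977), a decapping factor, TKT (0.976), the transketolase of the pentose phosphate pathway, and DAZAP1 (0.9751), an RNA-binding protein. EDC3 had a mean signal of 33.1 with the mimic, 54.0 with the negative control and 27.7 in mock. Over 8 arrays in 3 groups, which these points share, 18 genes correlated with CCN1 and 19 with CCN2 at r above 0.95.

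**Figure D4:**
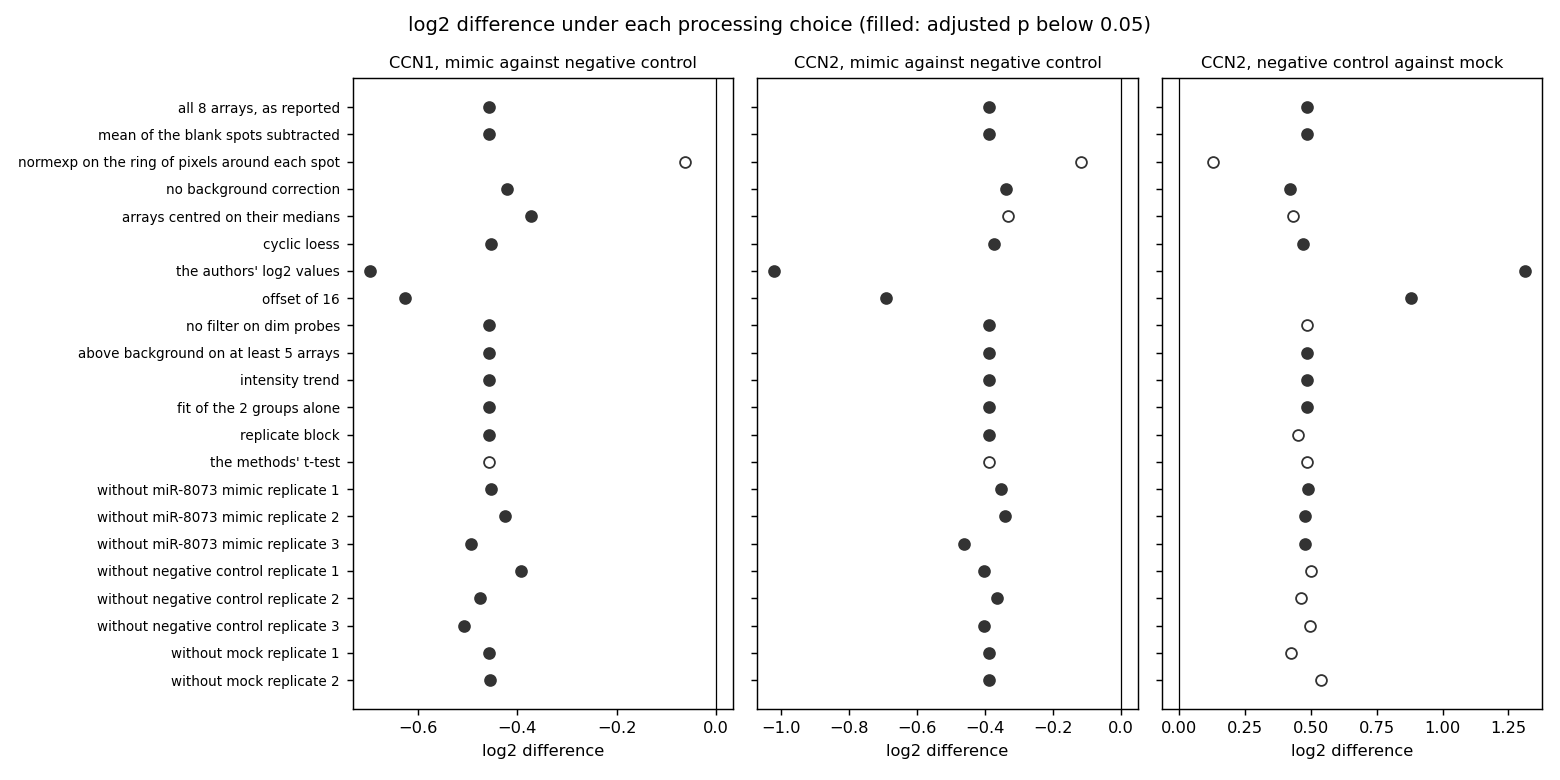
Log2 difference of CCN1 and CCN2 for mimic against negative control, and of CCN2 for negative control against mock, under each processing choice and without each array; filled points have an adjusted p below 0.05. When background came from the pixels ringing each spot, the differences shrink to -0.06, -0.12 and 0.13, and with the authors' log2 values they reach -0.70, -1.02 and 1.31.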

How the data were processed

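Total RNA was amplified, labelled with Cy5 and hybridised to 3D-Gene 25K oligo chips. The deposited intensity is the median of a spot's Cy5 pixels, uncorrected and not normalized per the file headers. The authors also deposited log2 values, quantile normalized between arrays, whose background correction the sources used here do not state. The second wavelength was not used. Background was removed with limma's normexp fitted to the 2680 blank spots (offset 50), 13 faulty probe spots were left out, and the 24460 probe spots were quantile normalized. The study's processing did not state this background step. Probes above the 95th percentile of the blank spots on at least 2 arrays (12904) were fitted with 3 group means over all 8 arrays (lmFit and eBayes, limma 3.58.1, R 4.3.3, jsonlite 2.0.0, 5 residual and 2.36 prior degrees of freedom). Tests were 2-sided, with Benjamini-Hochberg adjustment and a threshold of 0.05. Sequences were searched and figures drawn in Python 3.11.15 with matplotlib 3.10.9. Symbols came from the platform's probe table, updated through RefSeq, and a list gene was represented by its brightest probe. All probes of the 10 genes were named, then up to 8 called genes of each list, and the 3 most alike genes for CCN1 and CCN2. The members, lists and tests were chosen with earlier results of these data known. The fit was also run on simulated data in which all probes had the same spread. Probes of the arrays differ in spread, so that run does not show how well the p-values hold here. The number of arrays limits the precision. Alternatives covered background, normalization, offset, filter, variance trend, samples in the fit, replicate block, the methods' t-test and leaving out each array.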

Additional observations from a re-analysis of the deposited data

How the results depend on the processing

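For mimic against negative control, the 2 calls (CCN1 and CCN2) became 0 with the ring of pixels as background and 0 with the methods' t-test (adjusted p = 0.0627 and 0.0822), and 1 with arrays centred on their medians (CCN2 0.0759). Leaving out any 1 array kept 2. For mimic against mock, 0 became 1 (WWTR1) with an offset of 16 and 1 with an intensity trend. For negative control against mock, the 1 call (CCN2) became 0 with the ring (0.999), median centring (0.122), no filter (0.0806), the replicate block (0.0712) and the methods' t-test (0.199), 2 with the trend (WWTR1 added), and 0 to 1 when an array was left out. Other settings kept these counts. The cause was not tested. Leaving out the filter adds probes both to the adjustment and to the fit. With the ring, limma called none of all tested probes in the 3 comparisons (367, 266 and 421 at an unadjusted p below 0.05).

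Over all tested probes, the share of lower calls was 50%, 67.6% and 61.9% for mimic against negative control, mimic against mock and negative control against mock. It was 33.7%, 77.5% and 90.7% with median centring, and 46.7%, 86.4% and 88.8% with the authors' log2 values, under which the median of all tested probes for negative control against mock was -0.115. Counts of calls were 2017, 488 and 465, and reached their lowest, apart from the ring, at 816, 2 and 6 with the methods' t-test and their highest at 2698, 757 and 855 with the trend. Titles number the replicates. Deviations of same-numbered arrays correlated at -0.11 to 0.35 over 7 pairs, and those of differently numbered arrays at -0.35 to 0.13 over 14. With 2 mock arrays, whose deviations mirror each other, these values are not separate from one another. They do not settle whether the numbers pair the arrays. The main fit was unpaired because the study's test was unpaired. The replicate block gave 1848, 223 and 141 calls and, besides that of CCN2, ended those of VGLL4 (0.0597), MAP4K4 (0.0576), RUNX1 (0.078) and F3 (0.0972) named above, the last 2 for negative control against mock.

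Signs turned with the ring for TEAD1 (0.036 for mimic against negative control, 0.027 for mimic against mock, -0.0085 for negative control against mock), TEAD4 (-0.29 for mimic against negative control, 0.18 for negative control against mock), LATS1 (-0.0047), CCN1 (0.022), F3 (-0.39), GADD45B (0.030) and VGLL4 (-0.029) for mimic against mock, RUNX1 (0.32 for mimic against negative control, 0.045 for mimic against mock, -0.28 for negative control against mock), VGLL4 (-0.018) and AXL (-0.26) for mimic against negative control, and AMOT (-0.0096) for negative control against mock. TEAD1 also turned with the authors' values (0.043 for mimic against negative control, -0.16 for negative control against mock) and with median centring (-0.0014 for negative control against mock). TEAD4 turned with median centring (0.00056 for mimic against mock) and the replicate block (0.011 for mimic against mock, 0.00042 for negative control against mock). When single arrays were left out, values that changed sign ranged over -0.050 to 0.039 for TEAD1, -0.046 to 0.028 for TEAD4, -0.013 to 0.071 for LATS1, -0.12 to 0.035 for RUNX1 and -0.077 to 0.010 for GADD45B, all for mimic against mock, over -0.039 to 0.049 for TEAD1 and -0.056 to 0.020 for TEAD4 for negative control against mock, and over -0.029 to 0.042 for TEAD4 for mimic against negative control. None of the values with a turned sign passed the threshold.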
